A study of Mus musculus with 30 samples.

Results

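The foregut endoderm of the E8.25 mouse embryo was compared with epithelial cells of the same stage that lack the ENDM1 antigen. The comparison rests on 6 of the 30 expression arrays of the series, chosen by sample title: 3 of foregut endoderm and 3 of the ENDM1-negative population. Both populations came from Swiss Webster embryos, with no genetic modification named. Foregut cells had been sorted as ENDM1-positive, Epcam-positive and low in side scatter, and the comparator as Epcam-positive and ENDM1-negative, with no scatter gate named. The labels give no gene for the ENDM1 antigen, so its level could not be checked. The difference between the groups therefore includes the sorting antigen and the scatter gate together with the tissue. RNA of all 6 was amplified with the WT-Ovation Pico system, labelled with biotin and hybridised to Affymetrix mouse gene arrays. The labels speak of biological replicates without saying whether each came from separate litters, so p-values measure the spread between these samples, which may be technical in part. Another 6 arrays, used for the spread and for a side-by-side reading, held amplified RNA of C57BL/6x129SvJae ES cells, sorted as Sox2bright before differentiation (day 0) or as ckit+/Sox2dim after 5 days.

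The definitive endoderm is the germ layer that lines the gut tube, and its anterior part, the foregut, gives rise to the thyroid, lungs, liver and pancreas. It is built by forkhead and GATA transcription factors, and it signals to the neighbouring heart field and forebrain through secreted antagonists of Wnt, BMP and Nodal. Epcam is a surface molecule of most embryonic epithelia, so an Epcam-positive, ENDM1-negative gate can also take in surface ectoderm, neuroepithelium, extraembryonic epithelium and germ cells. Visceral endoderm, the extraembryonic layer that becomes the yolk sac lining, shares many genes with definitive endoderm and contributes cells to the gut tube.

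Values are the deposited log2 array signals, 1 probe set per gene, for 19938 genes. A level is given for foregut replicates 1, 2 and 3 and then for ENDM1-negative replicates 1, 2 and 3. A difference is foregut minus ENDM1-negative on the log2 scale with its standard error, n = 3 arrays a group. A gene was called when its Benjamini-Hochberg adjusted p from limma was under 0.05. Of all genes 1623 were called, 8.14% of those tested. Of these, 740 were called higher in foregut, 3.71% of all genes, and 883 were called lower, 4.43%. The gene lists below were chosen with earlier results of these data known. Each list count is a description, to be read beside these shares. At least 2-fold differences were called for 157 genes in the higher direction, 0.787%, and for 109 in the lower direction, 0.547%. The 3 foregut arrays lay above all 3 ENDM1-negative arrays in 13.1% of genes and below them in 15.1%, so non-overlap alone was common. The median difference over all genes was 0.01, and the median SD between arrays was 0.109 in foregut and 0.115 in ENDM1-negative cells. The count called higher ranged from 483 to 949 and the count called lower from 502 to 1111 when single arrays were left out. Without foregut replicate 1 the counts were 483 and 502. The count called lower was 558 without ENDM1-negative replicate 1 and 567 without ENDM1-negative replicate 3. Of the genes at least 2-fold apart, 141 of 157 and 97 of 109 stayed called without each array in turn.

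Promoters of 4 genes at least 2-fold higher in foregut are shown, chosen after their letters were read, because they carry short matches to motifs of liver and gut regulators. Afp encodes alpha-fetoprotein, a major fetal serum protein. Cltrn encodes collectrin, a membrane partner of amino acid transporters. Apoa1 encodes the main protein of high-density lipoprotein. Nepn encodes nephrocan, a secreted leucine-rich repeat protein. The sequences are the 250 bases before the RefSeq start of each gene (GRCm38.p6, plus strand), at chr5:90490464-90490713 for Afp, chrX:164089937-164090186 for Cltrn, chr9:46228380-46228629 for Apoa1 and chr10:52391358-52391607 for Nepn. Capitals mark matches on either strand to 4 motifs. The first forkhead motif, here forkhead A, is TGTTTAC. The other, forkhead G, differs from it in the sixth letter and reads TGTTTGC. The GATA motif is AGATAA. The HNF1 motif is GTTAAT followed by any base and then ATT.
Afp: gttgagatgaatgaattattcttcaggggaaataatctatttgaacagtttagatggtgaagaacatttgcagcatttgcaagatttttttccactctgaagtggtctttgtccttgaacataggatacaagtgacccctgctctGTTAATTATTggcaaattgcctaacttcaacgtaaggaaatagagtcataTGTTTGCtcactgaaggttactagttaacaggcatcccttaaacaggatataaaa
Cltrn: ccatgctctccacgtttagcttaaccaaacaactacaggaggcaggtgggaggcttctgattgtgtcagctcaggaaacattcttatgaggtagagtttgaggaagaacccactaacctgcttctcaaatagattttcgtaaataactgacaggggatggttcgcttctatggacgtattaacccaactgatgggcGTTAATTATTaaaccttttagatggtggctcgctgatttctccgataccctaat
Apoa1: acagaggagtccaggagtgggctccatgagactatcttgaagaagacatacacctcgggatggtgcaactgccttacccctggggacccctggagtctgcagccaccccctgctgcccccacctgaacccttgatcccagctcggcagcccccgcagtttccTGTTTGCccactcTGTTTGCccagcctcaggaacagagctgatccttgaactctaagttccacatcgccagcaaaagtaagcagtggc
Nepn: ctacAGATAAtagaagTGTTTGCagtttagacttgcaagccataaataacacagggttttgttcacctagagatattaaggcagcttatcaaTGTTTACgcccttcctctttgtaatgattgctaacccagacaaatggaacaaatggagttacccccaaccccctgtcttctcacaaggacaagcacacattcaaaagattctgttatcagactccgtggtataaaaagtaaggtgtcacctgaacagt
The Afp promoter holds the HNF1 motif 105 bases and a forkhead G motif 55 bases before the start. The Cltrn promoter holds the HNF1 motif 54 bases before the start. The Apoa1 promoter holds a pair of forkhead G motifs, at 88 and 75 bases. The Nepn promoter holds the GATA, forkhead G and forkhead A motifs at 246, 234 and 158 bases. RefSeq promoters were found for 125 of the 157 genes at least 2-fold higher, for 75 of the 109 lower and for 15614 of all genes measured. The HNF1 motif stood in 6 of the 125, which were Afp, Cltrn, Habp2, Mia2, Pcbd1 and Rfx6, or 4.8%, against 0.41% of all promoters and 0 of the 75. The forkhead G motif stood in 11.2% of the promoters of higher genes, in 2.67% of those of lower genes and in 4.47% of all. The forkhead A motif stood in 7.2%, 1.33% and 3.18% of the same sets, and the GATA motif in 7.2%, 5.33% and 9.94%. These are letter matches in a short window and no binding was measured. The motifs do not overlap one another as letter strings in the promoters shown, and the shares were given no test.

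Most listed secreted products of endoderm were higher in foregut. Of 29 measured members of that list, 18 were called higher and 2 lower, against 3.71% and 4.43% of all genes. The median difference was 0.90 against 0.01 over all genes. Because the list was chosen with earlier results of these data known, these figures give no independent support. Ttr, the carrier of thyroid hormone and retinol-binding protein, was at 11.51, 11.90 and 11.15 in foregut and at 7.87, 7.25 and 8.37 in ENDM1-negative cells. The groups were far apart, with a difference of 3.69 ± 0.31 (adjusted p = 1.56e-05), a fold of 12.9. Ttr also stands in the list of yolk sac markers, to which the other 17 higher members do not belong. It has the array order of that list, with foregut replicate 2 above 1 above 3. Of the 29 secreted products, Ttr included, 8 had this order, 27.6%, against 11.9% of all genes. Pyy encodes peptide YY, a gut hormone. It was at 9.84, 10.07 and 9.90 against 7.16, 6.10 and 6.56, with no overlap and a difference of 3.33 ± 0.44 (adjusted p = 0.000545). Cpm, a membrane-bound carboxypeptidase, was at 9.46, 9.46 and 9.18 against 6.20, 6.29 and 6.01, a difference of 3.20 ± 0.29. The ENDM1-negative arrays lay close to one another for Cpm, while for Pyy replicate 1 was the highest of them.

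Trh, Spink1 and Nepn were likewise higher on every foregut array. Trh, the precursor of thyrotropin-releasing hormone, was at 10.38, 10.37 and 10.32 in foregut and at 7.80, 7.78 and 7.84 in the comparator. Within each group the arrays were nearly level, and the difference of 2.55 ± 0.07 had an adjusted p of 7.23e-10. Spink1, a trypsin inhibitor of the gut and pancreas, was at 11.86, 11.94 and 11.56 against 9.23, 9.11 and 8.85, a difference of 2.72 ± 0.17 (adjusted p = 1.45e-06). The comparator arrays of both genes were above the median array level, which was between 5.69 and 5.74 on the amplified arrays, so the comparator signal was not at the bottom of the scale. Nepn was at 9.53, 9.92 and 9.48 against 8.37, 8.34 and 7.51, a difference of 1.57 ± 0.21 (adjusted p = 0.000659). ENDM1-negative replicate 3 lay below the other two, and all foregut arrays were higher.

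Several of the secreted genes called higher encode antagonists and peptides of early endoderm. Cer1, a secreted inhibitor of Nodal and BMP ligands, was at 7.97, 7.47 and 6.97 in foregut and at 6.16, 5.58 and 5.33 in the comparator, a difference of 1.78 ± 0.26. The groups did not overlap, although the foregut arrays spread over about a log2 unit. Frzb, a secreted Wnt antagonist, was at 8.26, 8.15 and 8.38 against 6.24, 5.80 and 6.12, a difference of 2.21 ± 0.13. Dkk1, which blocks the Wnt co-receptor, was at 7.01, 7.18 and 6.99 against 6.18, 6.21 and 6.07, a difference of 0.91 ± 0.19. Apela, a peptide ligand of the apelin receptor, was at 11.65, 11.68 and 11.57 against 10.25, 10.11 and 9.56, a difference of 1.66 ± 0.15, so it was also strong in the comparator. Cpn1, Igfbp5 and Clu were higher too, by 1.99, 1.14 and 0.90. Sct, which encodes the gut hormone secretin, went the other way, at 6.64, 6.72 and 6.63 against 7.20, 7.85 and 7.21, and fell by 0.76 on the log2 scale (adjusted p = 0.00974).

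**Figure D1:**
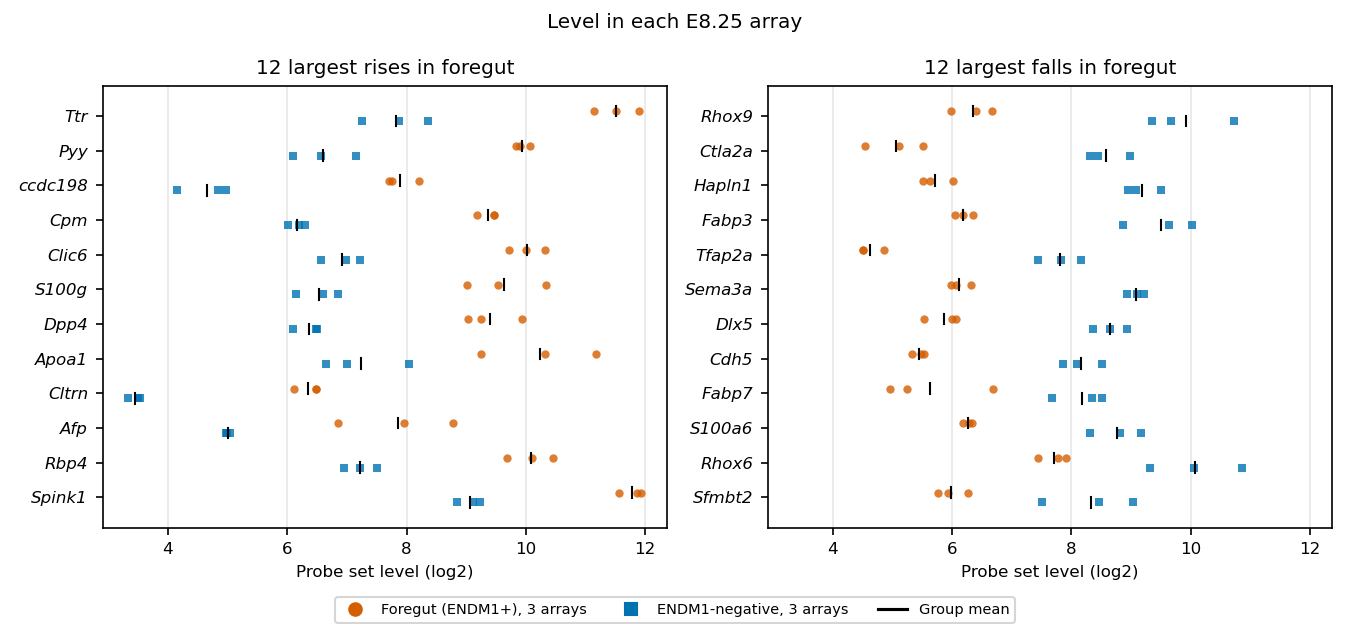
Log2 signal on each of the 6 embryo arrays for the 12 called genes furthest apart in each direction with no array of one group inside the range of the other, with circles for foregut arrays, squares for ENDM1-negative arrays and a bar at each group mean. The foregut points of Ttr lie between 11.15 and 11.90, all above the ENDM1-negative points at 7.25 to 8.37, and those of Rhox9 lie between 5.97 and 6.66, all below the ENDM1-negative points at 9.35 to 10.72.

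Transcription factors of endoderm were higher in part. Of 28 measured members of the list, 11 were called higher and 3 lower, against 3.71% and 4.43% of all genes. The counts were 7 higher when foregut replicate 1 or foregut replicate 2 was left out and 1 lower without foregut replicate 1. Foxa2, a pioneer factor of the gut endoderm, was at 7.35, 7.20 and 7.33 in foregut and at 6.20, 5.97 and 5.96 in ENDM1-negative cells, a difference of 1.25 ± 0.15 (adjusted p = 0.000261). Hhex, a homeobox factor of anterior endoderm and of the liver and thyroid buds, was at 9.27, 9.28 and 8.97 against 7.46, 7.15 and 7.92, a difference of 1.66 ± 0.28 (adjusted p = 0.00288). Both genes separated the groups, and the highest ENDM1-negative array of Hhex was replicate 3. The GATA factors of endoderm and heart, Gata6, Gata4 and Gata5, were higher by 1.31, 0.92 and 0.62, and Foxa1 and the Wnt effector Tcf7l2 by 0.88 and 0.99. These stayed called without each array in turn. Eomes, a T-box factor of early mesendoderm and of trophoblast, was at 5.65, 5.14 and 5.07 against 7.09, 7.11 and 6.13 and fell by 1.49 on the log2 scale. Sox17, an HMG-box factor of early definitive endoderm, was at 7.05, 6.62 and 6.66 against 5.72, 5.92 and 5.78. Its arrays did not overlap, but the difference of 0.97 ± 0.34 had an adjusted p of 0.106. The adjusted p of Sox17 was 0.00173 when only the 2 embryo groups were fitted and 0.000145 without replicate 1 of the day 5 ES cells, since the arrays of all 4 groups share one estimate of the spread.

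Regional factors of the foregut were called in part. Of 24 measured members, 5 were called higher and 1 lower, against 3.71% and 4.43% of all genes. The higher count was 2 or 3 when any 1 embryo array or replicate 2 of the day 0 ES cells was left out. The lower member was Sox2, which also stands in the neural list and fell by 0.96 on the log2 scale. The call for Sox2 was lost without ENDM1-negative replicate 1 or 3 or without any one of the foregut replicates. Pax9, a paired-box factor of the pharyngeal pouches, was at 7.62, 7.18 and 7.45 in foregut and at 5.77, 5.56 and 5.32 in the comparator. The gap was wide, and the difference was 1.87 ± 0.12 (adjusted p = 2.48e-06), a fold of 3.65. The forkhead factor Foxp2 was higher by 0.43 ± 0.08 (adjusted p = 0.00641). Nkx2-1, a factor of the thyroid and lung buds, was at 5.35, 5.12 and 5.31 against 5.05, 5.15 and 4.77 (adjusted p = 0.18), with overlapping arrays. Nkx2-5, of the heart field and pharyngeal endoderm, was at 6.84, 6.67 and 6.88 against 6.63, 6.61 and 6.53 (adjusted p = 0.178). Neither passed the test. Among 17 midgut, hindgut and pancreas factors, 1 was higher and 3 lower, with 1 lower without ENDM1-negative replicate 3, foregut replicate 1 or foregut replicate 2. The higher one was Rfx6, a winged-helix factor of early endoderm and of hormone-producing cells, at 7.35, 7.63 and 6.40 against 5.09, 4.29 and 4.46. All foregut arrays of Rfx6 were above the comparator, though replicate 3 was lower than the other two, and the difference was 2.51 ± 0.50 (adjusted p = 0.00775). Insm1, a zinc-finger factor of endocrine and neural progenitors, fell by 0.64 on the log2 scale.

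Markers of yolk sac and visceral endoderm were higher in foregut for most members measured. Of 26, 24 had a difference above 0, and the median difference was 1.35. Called higher were 19 and lower 0, against 3.71% and 4.43% of all genes, and 1 member was lower at an unadjusted p under 0.05. Apoa1 was at 10.32, 11.17 and 9.25 in foregut and at 6.996, 6.65 and 8.04 in ENDM1-negative cells, a difference of 3.01 ± 0.46 (adjusted p = 0.00158). Afp was at 7.96, 8.77 and 6.84 against 4.97, 4.99 and 5.04, a difference of 2.86 ± 0.32 (adjusted p = 0.000175). Foregut replicate 2 was the highest and replicate 3 the lowest array for both genes, whereas the comparator was level for Afp. Apob, the structural protein of lipid-carrying particles, was at 8.09, 9.42 and 7.37 against 5.58, 5.26 and 6.20, a difference of 2.61 ± 0.38, and Apoa2 differed by 2.64 ± 0.43. The fibrinogen chains Fgg and Fgb were higher by 2.37 and 1.59, Mttp, which loads lipid onto Apob, by 1.74, and the glucose transporter Slc2a2 by 0.69. Cubn, the cobalamin and albumin receptor of absorptive epithelia, was at 7.34, 8.85 and 6.17 against 4.78, 4.35 and 5.95, and its adjusted p of 0.0118 was 0.0524 without ENDM1-negative replicate 2. Lrp2, its partner in endocytosis, was at 7.42, 7.82 and 7.58 against 8.62, 8.39 and 8.78 and did not pass the test (adjusted p = 0.069). Alb, the adult liver's main serum protein, was at 4.02, 4.14 and 3.92 against 3.88, 3.89 and 3.87.

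The yolk sac list also differed between the foregut arrays themselves. Its mean level was 7.29, 7.87 and 6.90 in foregut replicates 1, 2 and 3 and 5.91, 5.77 and 6.15 in the ENDM1-negative ones. Replicate 2 was the highest foregut array for 25 of 26 members, 96.2%, against 25.7% of all genes. The full order of replicate 2 above 1 above 3 held for 22 members, 84.6%, against 11.9% of all genes. The range across foregut arrays had a median of 1.07 over the called yolk sac members, from 0.247 to 2.68, and of 0.246, from 0.0561 to 1.1, over the called secreted products outside that list. In the comparator, replicate 3 was the highest array for 19 of 26 members, 73.1%, against 38.9% of all genes. Among the 157 genes at least 2-fold higher, 83 had the same foregut order, 52.9%. The part of visceral endoderm cells in these differences was not tested, and in bulk samples fewer cells of a type and less RNA per cell cannot be told apart. Of the 157 genes, 145 stayed called without foregut replicate 2.

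**Figure D2:**
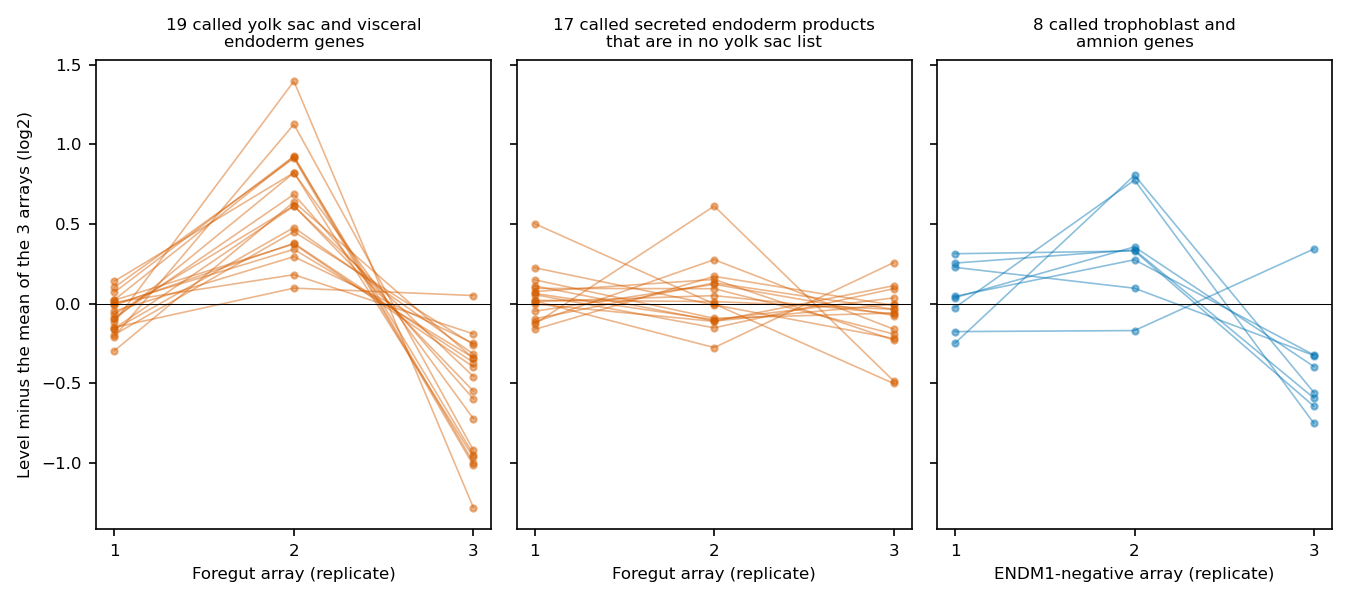
Log2 level of each called marker gene minus its mean over the 3 arrays of 1 group, 1 line per gene, by replicate number, whose order carries no meaning. The left panel holds 19 yolk sac markers and the middle panel 17 other secreted endoderm products on the foregut arrays, and the right panel holds 8 trophoblast markers on the ENDM1-negative arrays. The lines of the yolk sac markers peak at foregut replicate 2 and have a median range of 1.07 across foregut arrays, those of the other secreted endoderm products have a median range of 0.246, and those of the trophoblast markers have a median range of 0.842 across ENDM1-negative arrays.

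Of the 12 largest rises, 5 genes stood in none of the lists described here. Dpp4, a membrane dipeptidase of gut and kidney epithelium, was at 9.26, 9.94 and 9.03 against 6.49, 6.50 and 6.10, a difference of 3.04 ± 0.24. S100g, a calcium-binding protein of absorptive epithelia, was at 9.53, 10.34 and 9.01 against 6.15, 6.61 and 6.85, a difference of 3.09 ± 0.27. Clic6, of the chloride intracellular channel family, was at 10.003, 10.33 and 9.72 against 7.21, 6.57 and 6.99, a difference of 3.09 ± 0.32. In all 3 genes foregut replicate 2 was highest and replicate 3 lowest, as in the yolk sac list. Cltrn was at 6.48, 6.48 and 6.11 against 3.50, 3.52 and 3.34, a difference of 2.90 ± 0.37, and ccdc198 at 7.76, 8.21 and 7.70 against 4.85, 4.97 and 4.15, a difference of 3.24 ± 0.19. Among fatty acid binding proteins, a family chosen after its values were seen, 2 of 9 measured members were called higher and 3 lower. Over all genes 3.71% were called higher and 4.43% lower. Fabp1 and Fabp2, the liver and gut forms, were higher by 2.18 and 2.07. Fabp3, the heart form, was at 6.18, 6.04 and 6.34 against 9.64, 10.03 and 8.86 and fell by 3.32 on the log2 scale. Fabp3 has 2 probe sets, and the values are those of the set with the higher mean signal. Fabp7, the brain form, fell by 2.55.

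In the Wnt list of ligands, receptors and antagonists, 5 of 41 members were higher and 2 lower, against 3.71% and 4.43% of all genes. Without ENDM1-negative replicate 1, foregut replicate 1 or foregut replicate 2 the counts were 3 and 0. Beside Frzb and Dkk1, the receptor Fzd4 was higher, at 6.76, 6.80 and 6.93 against 5.77, 5.21 and 5.82, by 1.23 ± 0.13 (adjusted p = 0.000124). Of 10 Wnt target genes, Rnf43 was higher by 0.44 and Axin2 fell by 0.47 on the log2 scale, both encoding feedback inhibitors. Of 18 genes of the Nodal, activin and TGF-beta list, 1 was called. This was Tgfb2, a TGF-beta ligand, at 8.44, 8.46 and 8.90 against 6.45, 6.59 and 6.78, a difference of 1.99 ± 0.15 (adjusted p = 7.51e-06). Among 20 FGF genes 3 were higher and 1 lower, and the receptor Fgfr4 and the FGF-responsive factor Etv5 were higher by 0.52 and 0.50. Of 22 BMP genes 1 was higher and 1 lower, and of 30 Notch and ephrin genes likewise 1 and 1. These counts were close to the shares over all genes. With single arrays left out, 0 to 2 BMP genes were higher and 0 to 3 lower. For Notch and ephrin genes the ranges were 0 to 2 and 0 to 1.

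Hedgehog genes gave weak calls. Of 16, 2 were higher and 2 lower, against 3.71% and 4.43% of all genes. Shh, the ligand made by ventral foregut, was at 5.97, 5.77 and 6.01 against 5.58, 5.17 and 5.34, and Ptch1, its receptor and target, at 9.64, 9.47 and 9.72 against 8.84, 8.69 and 9.04. Both groups of arrays were separate, by 0.55 ± 0.12 and 0.75 ± 0.21, but the adjusted p of 0.0132 for Shh reached 0.0567 with 1 array left out and that of 0.0403 for Ptch1 reached 0.126. The call for Shh was lost without ENDM1-negative replicate 2 or foregut replicate 1 or 3, and that for Ptch1 without any one of the embryo arrays or replicate 3 of the day 0 ES cells.

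Of 15 retinoic acid genes, 4 were called higher and 2 lower, against 3.71% and 4.43% of all genes, with a median difference of -0.11. Rbp4, which carries retinol in serum and also stands in the yolk sac list, was at 10.10, 10.46 and 9.68 against 7.22, 6.96 and 7.50, a difference of 2.85 ± 0.29. Rarb, a receptor that is itself a target of retinoic acid, was at 8.81, 8.79 and 8.98 against 7.64, 7.04 and 7.26, a difference of 1.55 ± 0.24 (adjusted p = 0.00196). Rarb was level across foregut arrays, whereas Rbp4 followed the order of the yolk sac list. Aldh1a1, which oxidises retinal, was higher by 0.77 ± 0.14. Crabp1, a cellular binding protein of neural and neural crest cells, was at 9.56, 9.01 and 9.74 against 11.15, 11.18 and 11.43 and fell by 1.81 on the log2 scale. Anterior Hox genes gave 0 higher and 3 lower of 11, with 1 lower without ENDM1-negative replicate 3, foregut replicate 1 or foregut replicate 2, and Hoxb2 fell by 0.65 on the log2 scale.

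Genes of epithelial adhesion had a median difference of 0.26, against 0.90 for the secreted products. Epcam, on which both groups had been sorted, was at 9.36, 9.36 and 9.35 in foregut and at 9.10, 9.11 and 9.11 in the comparator. The arrays were tight and separate, yet the difference of 0.25 ± 0.10 did not pass the test (adjusted p = 0.155). Cdh1, the epithelial cadherin, was at 9.65, 9.65 and 9.68 against 9.35, 9.27 and 9.27 (adjusted p = 0.251, and 0.0247 when only the embryo groups were fitted). Of 32 genes for epithelial adhesion, 7 were called higher and 0 lower, and 0 were lower at an unadjusted p under 0.05. The count was 4 without ENDM1-negative replicate 3 or foregut replicate 3, and 13 without replicate 1 of the day 5 ES cells. Patj, a polarity scaffold, was higher by 0.72 ± 0.11 and occludin, Ocln, by 0.77 ± 0.16. Of 10 keratins, 3 were called higher and 2 lower, while over all genes 3.71% were called higher and 4.43% lower. Krt8, a keratin of simple epithelia, was at 12.02, 11.90 and 11.97 against 10.96, 11.06 and 11.16, a difference of 0.91 ± 0.10 (adjusted p = 0.000198). Its partner Krt18 was higher by 0.85 and Krt19 by 1.05, whereas Krt5, a keratin of stratified epithelium, fell by 0.61 on the log2 scale and Krt23 fell by 0.68. The call for Krt23 was lost without ENDM1-negative replicate 1 or 3 or without any one of the foregut replicates.

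Of 23 cadherin genes, a family chosen after its values were seen, 1 was called higher and 4 lower. The higher one was Cdh6, and the lower ones were Cdh5, Cdh11, Cdh2 and Cdh20. The call for Cdh2 was lost without ENDM1-negative replicate 1 or 3 or foregut replicate 1 or 2, and that for Cdh20 without ENDM1-negative replicate 2 or 3 or foregut replicate 1 or 3. Cdh6, a cadherin of embryonic epithelia, was at 9.36, 9.56 and 8.99 in foregut and at 6.86, 6.44 and 6.53 in the comparator, a difference of 2.70 ± 0.38 (adjusted p = 0.000974). Fibronectin, Fn1, was at 10.79, 10.79 and 10.85 against 9.62, 9.45 and 9.67, a difference of 1.23 ± 0.09 (adjusted p = 5.95e-06). Both were higher on all foregut arrays. The mesenchymal cadherin Cdh11 and the repressor Zeb2 fell by 1.09 and 1.54 on the log2 scale. In that list of 22 mesenchymal genes, 5 were higher and 6 lower, with 2 or 3 lower without ENDM1-negative replicate 2 or 3 or foregut replicate 1 or 2. Basement membrane genes gave 7 higher and 2 lower of 24, with 3 or 4 higher without ENDM1-negative replicate 1 or 2 or foregut replicate 2. Over all genes 3.71% were higher and 4.43% lower. The laminin chain Lama1 was at 7.57, 7.78 and 7.48 against 6.53, 6.56 and 6.48, a difference of 1.08 ± 0.11. Nid2 and Nid1, linkers of laminin and collagen IV, split, with Nid2 higher by 0.65 ± 0.10 and Nid1 lower, at 5.79, 5.80 and 5.64 against 6.09, 6.67 and 6.56. Among semaphorins, plexins and their receptors, chosen after values were seen, 4 of 38 were higher and 8 lower. The receptors Nrp1 and Robo2 were higher by 2.12 and 1.95, and the repulsive ligand Sema3a was at 6.06, 5.98 and 6.31 against 9.10, 8.93 and 9.22 and fell by 2.97 on the log2 scale.

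Imprinted genes, which are expressed from the allele of 1 parent, gave 8 higher and 3 lower of 23. Over all genes 3.71% were higher and 4.43% lower, and the list's median difference was 0.26 against 0.01. Cdkn1c, an inhibitor of cyclin-dependent kinases, was at 9.57, 9.76 and 9.34 against 7.93, 8.22 and 8.09, a difference of 1.48 ± 0.12 (adjusted p = 8.68e-06). Peg3, Meg3, Igf2 and Igf2r were higher by 0.82, 0.77, 0.51 and 0.50, and Mest and Slc38a4 each fell by 0.74 on the log2 scale. Cell cycle genes gave 0 higher and 6 lower of 21. The lower count was 1 to 3 without ENDM1-negative replicate 2 or 3 or without any one of the foregut replicates. It was 2 after quantile normalization and 13 when the spread was modelled with a trend in signal level. At an unadjusted p under 0.05, 16 were lower and 0 higher. All 3 foregut arrays lay below the comparator arrays for 17 of the 21, against 15.1% of all genes. Aurkb, a mitotic kinase, stayed called without each array in turn, at 8.47, 8.35 and 8.36 against 8.76, 8.86 and 8.86. None of the 15 cholesterol synthesis genes was called by limma, with 1 lower and 0 higher at an unadjusted p under 0.05.

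**Figure D3:**
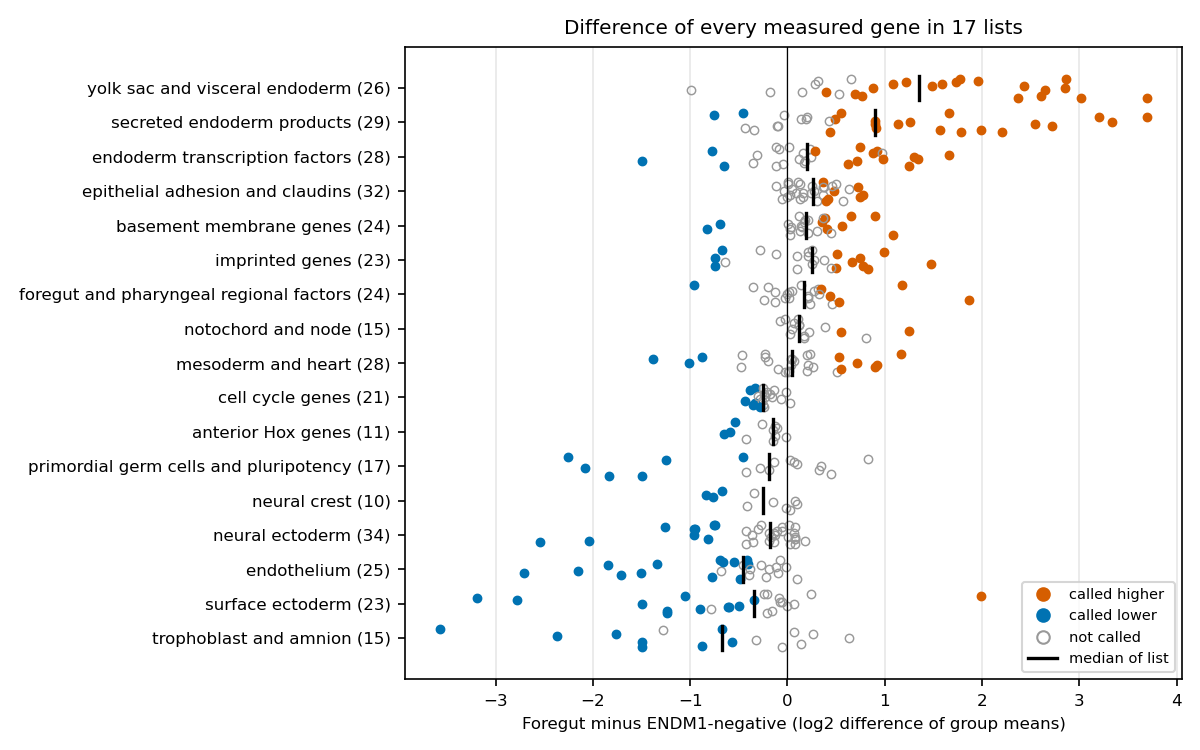
Log2 difference of foregut minus ENDM1-negative group means for every measured gene of 17 lists, 1 circle per gene, filled where called at an adjusted p under 0.05, with a bar at each list's median and the number measured in parentheses. The yolk sac list has 19 of 26 members higher and the endothelial list 13 of 25 lower, while over all genes 3.71% were higher and 4.43% lower.

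Genes lower in foregut included markers of several tissues that an Epcam-positive, ENDM1-negative gate could hold. Of 23 surface ectoderm markers, 11 were lower and 1 was higher, against 4.43% and 3.71% of all genes. The higher one was Tgfb2. Tfap2a, an AP-2 factor of surface ectoderm and neural crest, was at 4.50, 4.50 and 4.86 in foregut and at 7.82, 7.44 and 8.16 in ENDM1-negative cells. The difference was -3.19 ± 0.17 (adjusted p = 5.78e-07), a 9.10-fold lower signal. Dlx5, a homeobox factor of the same ectoderm, was at 6.00, 5.52 and 6.07 against 8.64, 8.37 and 8.93. Trp63 and Grhl3, regulators of epidermis, fell by 0.90 and 1.06. The mean level of the whole list was between 5.88 and 6.01 on the foregut arrays and between 6.48 and 6.62 on the comparator arrays.

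Neural markers were lower for 9 of 34, against 4.43% of all genes. Members higher numbered 0, also at an unadjusted p under 0.05. Pax6, a paired-box factor of the forebrain, eye and spinal cord, was at 4.91, 4.89 and 5.24 against 6.69, 6.93 and 7.56, and fell by 2.04 on the log2 scale. Pax3, of dorsal neural tube, fell by 1.26 and Fezf1, of anterior neural plate, by 0.97. All 3 had separate arrays. Of 10 neural crest markers, 3 were lower, and the endothelin receptor Ednrb fell by 0.68.

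Endothelial markers fell for 13 of 25, against 4.43% of all genes. They rose for none, with 0 higher at an unadjusted p under 0.05. The lower count was 8 without foregut replicate 2. Cdh5, the endothelial cadherin, was at 5.47, 5.33 and 5.53 in foregut and at 7.86, 8.09 and 8.50 in the comparator, and was lower, with a difference of -2.71 ± 0.14 (adjusted p = 5.78e-07). Kdr, the main VEGF receptor, was at 4.64, 4.71 and 5.03 against 6.31, 6.66 and 6.95 and fell by 1.85. Emcn, an endothelial sialomucin, was at 3.35, 3.45 and 3.63 against 4.97, 5.70 and 6.21 and fell by 2.15. ENDM1-negative replicate 3 was highest in all 3 genes and in 18 of the 25 members, 72%, against 38.9% of all genes. The list's mean level was 6.02, 6.20 and 6.41 in the ENDM1-negative replicates and between 5.42 and 5.52 in foregut. The comparator had been sorted as Epcam-positive, and the part of endothelial cells in this difference was not tested. Of 17 erythroid genes, the embryonic globin Hbb-bh1 alone was called, at 7.84, 8.19 and 8.20 against 7.06, 7.55 and 7.82 (adjusted p = 0.0341), a call lost without ENDM1-negative replicate 1 or 2 or foregut replicate 2 or 3. Another, Hbb-y, was at 4.98, 6.18 and 6.07 against 4.42, 6.43 and 5.99, with overlapping arrays.

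Trophoblast and amnion markers were lower for 8 of 15, against 4.43% of all genes, with 1 higher at an unadjusted p under 0.05. Eomes, Hand1 and Cdx2 are among the lower members and also stand in other lists described here, so the list counts are not independent. Rhox9, an X-linked homeobox gene of placenta and germ cells, was at 5.97, 6.41 and 6.66 in foregut and at 9.66, 10.72 and 9.35 in ENDM1-negative cells. It stood furthest down among the 12 named falls, with a difference of -3.57 ± 0.28 (adjusted p = 8.37e-06), an 11.8-fold lower signal. Its neighbour in the family, Rhox6, was at 7.77, 7.92 and 7.44 against 10.05, 10.85 and 9.32, and fell by 2.37. Elf5, an ETS factor of trophoblast stem cells, was at 5.13, 5.07 and 5.11 against 7.12, 7.20 and 6.27. ENDM1-negative replicate 2 was highest for all 3 genes and for 11 of 15 members of the list, 73.3%, against 31.6% of all genes. The list's mean level was 6.73, 7.06 and 6.49 in the ENDM1-negative replicates and between 5.86 and 5.88 in foregut. Sfmbt2, an imprinted Polycomb-type gene of extraembryonic tissue, and S100a6, a calcium-binding protein, fell by 2.35 and 2.50 and were also highest in that replicate. The part of extraembryonic cells in the comparator was not tested, and 104 of the 109 genes at least 2-fold lower stayed called without ENDM1-negative replicate 2.

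Germ cell and pluripotency markers were lower for 6 of 17. Pou5f1, the Oct4 gene, was at 5.74, 5.28 and 5.93 against 8.17, 7.19 and 8.35 and fell by 2.25 on the log2 scale. Dppa3, a maternal and germ cell factor, was at 5.05, 4.79 and 5.00 against 6.92, 6.56 and 6.86 and fell by 1.83. Utf1 and Zfp42, genes of pluripotent cells, fell by 2.08 and 1.25. Pou5f1 was lowest of the comparator arrays in replicate 2, whereas Utf1 and Zfp42 were highest there. Mesoderm and heart genes split, with 6 higher and 3 lower of 28, against 3.71% and 4.43% of all genes. Tbx20, a T-box factor of the heart, was at 6.38, 6.69 and 5.96 against 5.21, 5.42 and 4.90 and higher by 1.17 ± 0.21. Mef2c, a muscle and vascular factor, and Foxc2, a factor of paraxial mesoderm, fell by 1.01 and 1.38. Hapln1, a link protein of hyaluronan matrix, was at 6.01, 5.63 and 5.51 against 8.94, 9.09 and 9.50, and Ctla2a, an inhibitor of cysteine proteases, at 5.11, 4.54 and 5.51 against 8.31, 8.44 and 8.97. These last 2 genes had wide gaps, and Hapln1 fell by 3.46 and Ctla2a fell by 3.53.

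The same genes were also measured in the amplified ES cells, where day 5 cells were compared with day 0. The contrasts share no array, but they share the estimate of the spread. In the ES cells 2596 genes were higher at day 5, 13.0% of those tested, and 2758 were lower, 13.8%. Of the 157 genes at least 2-fold higher in foregut, 92 were called higher at day 5, which is 58.6% of the 157 and 3.54% of the ES genes higher, and 8 were called lower, 5.1%. Of the 109 lower in foregut, 50 were lower at day 5, which is 45.9% of the 109 and 1.81% of the ES genes lower, and 16 were higher, 14.7%. Spink1, Cpm, Cer1 and Frzb were higher in both, with day 5 minus day 0 differences of 4.91, 3.37, 4.51 and 3.68. Pax9, Afp and Nepn were not called in the ES cells, with differences of 0.19, 0.01 and 0.22. The test of the difference between the contrasts called 2532 genes, 12.7%. It gave 1.68 for Pax9 (adjusted p = 4e-05), 2.85 for Afp (adjusted p = 0.0012) and 1.34 for Nepn (adjusted p = 0.0095), and for Ttr it gave 0.89 (adjusted p = 0.21).

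**Figure D4:**
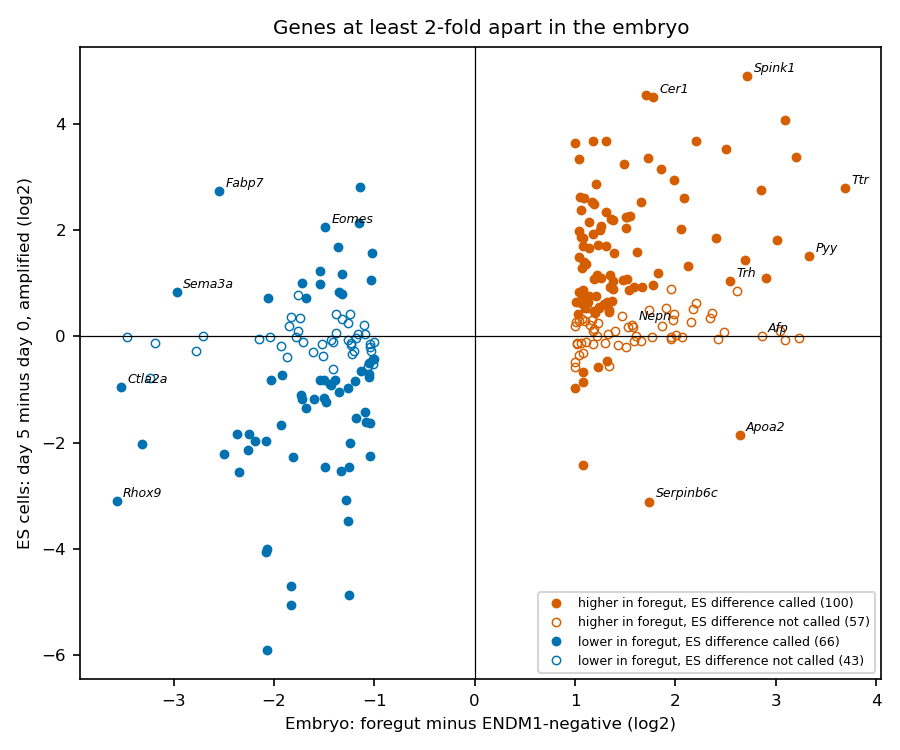
Log2 difference between foregut and ENDM1-negative cells on the horizontal axis and between day 5 and day 0 of the amplified ES cells on the vertical axis, 1 circle per gene, for the genes at least 2-fold apart in the embryo, filled where the ES difference was called. Of the 157 genes on the right, 92 were called higher at day 5 and 8 lower, and of the 109 on the left, 50 were called lower and 16 higher.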

How the data were processed

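Gene expression was measured on 30 Affymetrix mouse gene arrays, of which 12 carried amplified RNA and entered the fit. The deposited log2 values came from RMA, per the submitters' processing notes. RMA subtracts background, makes the arrays' distributions equal and summarises probes, which compresses small signals, and whether all arrays were processed together is not given in the sources used here. Arrays have no depth, no detection flag was available in these values, and precision is limited by how few arrays each group has. Of 35556 probe sets, 21789 named 1 gene, 1621 named several and 12146 were not listed. Of those naming 1 gene, 21698 matched a RefSeq gene. Genes with several probe sets (999) were represented by the 1 with the highest mean signal over the 30 arrays. Means of 4 groups were fitted with limma 3.58.1 in R 4.3.3 (lmFit, eBayes, 8 residual degrees of freedom), two-sided, with Benjamini-Hochberg adjustment over 19938 genes. Tests on simulated data recovered 56%, 92% and 100% of genes raised by 0.5, 1 and 2 log2 units and 98% of those lowered by 2, with 3.89% false calls. The simulated noise was independent between genes, unlike the array patterns shared by the yolk sac or trophoblast members. These rates are therefore not error rates of the real arrays.

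The members and gene lists were chosen with earlier results of these data known. Named genes were the 12 largest called differences in each direction with non-overlapping arrays, members of the lists, and fixed markers. Habp2, Mia2, Pcbd1, the fatty acid binding proteins, the cadherin family, the guidance genes and the promoters shown were chosen after their values were seen. Lists are described by counts and medians, with no set test. Replicate numbers did not pair the samples: same-number correlations of deviations were 0.024, 0.052 and 0.087. Promoters came from RefSeq (GRCm38.p6). Alternatives changed the arrays fitted, the normalization, the dim-gene filter, the choice of probe set, the spread model, the replicate block and the least difference tested.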

Additional observations from a re-analysis of the deposited data

Results flagged for a closer look

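The following genes had the 5 largest differences of differences in each direction among genes called in both contrasts with opposite sign. Provisional gene names were left out, and the list is not the full set. The difference of the embryo difference (foregut minus ENDM1-negative) and the ES difference (day 5 minus day 0) was itself tested and called with limma. Serpinb6c, a serpin, was higher in foregut by 1.74 and lower at day 5 by 3.11 on the log2 scale, a difference of differences of 4.85. Cyct, the testis cytochrome c, gave 4.53, Apoa2 gave 4.50, Mme, a membrane endopeptidase, gave 3.50 and Gask1b gave 2.32. In the other direction Fabp7 gave -5.28, Klhl4 gave -3.95, Sema3a gave -3.80, Eomes gave -3.55 and Aplnr, the apelin receptor, gave -3.30. Fabp7 was at 5.24, 4.96 and 6.69 in foregut and at 8.50, 7.68 and 8.34 in ENDM1-negative cells, and had a mean of 8.46 at day 5 and of 5.72 at day 0. Eomes had a mean of 8.23 at day 5 and of 6.17 at day 0. The embryo calls of Cyct, Gask1b and Aplnr were lost without single arrays: for Cyct ENDM1-negative replicate 1 or 2, foregut replicate 1 or 2, or replicate 3 of the day 0 ES cells, for Gask1b any ENDM1-negative replicate, and for Aplnr any ENDM1-negative replicate or foregut replicate 1 or 2.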

How the results depend on the processing

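Over 22 other settings no called gene changed direction among 149 genes. These are the fixed markers, the largest differences overall and the 4 largest called in each direction of each list. Settings that change only the spread, the block, the gene filter, the least difference or the ES arrays leave the embryo difference as it is. A change of direction could not occur in those settings. The choice of probe set can move only genes with several probe sets. Of the 149 genes, 143 were called, 51 stayed called in every setting, and 44 lost the call when some 1 array was left out. Over the wider set of 385 called genes that stand in any list, are at least 2-fold apart or are named here, 95 lost the call when some 1 array was left out, 247 lost it in some other setting that tested them, and 138 kept it throughout. The replicate number as a block left 629 genes higher and 700 lower. Fitting all 30 arrays called 1476 lower. Leaving out dim genes left 69 at least 2-fold lower and 1456 with non-overlapping higher arrays. Testing against a least difference of 0.5 left 80 higher and 62 lower in foregut, 522 higher and 478 lower at day 5 of the ES cells, and 485 for the difference between the contrasts. Leaving out single arrays gave 483 to 949 higher, 502 to 1111 lower, 135 to 161 at least 2-fold higher, 102 to 117 at least 2-fold lower, 2208 to 2580 higher and 2288 to 2747 lower at day 5, and 2012 to 2745 for the difference between contrasts. The share of calls that were higher was 45.6%, 55.5% after quantile normalization and 43.1% with a common median. The difference between the contrasts has no value when only the embryo groups are fitted. No replicate check on litters is possible, sorting gates differ between the groups, and RMA values have no true zero, so low levels are not read as absence.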
